A study of Homo sapiens with 4 samples.

Results

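A set of 45 genes of the cell cycle and of DNA replication was followed in the human hepatoma line Huh7. All 45 were found by symbol among the 42169 gene rows of the deposited count table, and all 45 had enough reads to be tested. The control group was Huh7 control clone 1, labelled WT. The other group was clone 18, in which the genes for BRF1 and TTP were knocked out (Brf1/TTP DKO, here DKO). Each group gave 2 libraries of total RNA, and each genotype is 1 clone, so genotype and clone cannot be told apart. All cells were kept in DMSO for 3 h, and actinomycin D (5 µg/ml), an inhibitor of transcription, was present during the last 10 min. Every level below was therefore read shortly after transcription had been stopped, in controls as in DKO cells.

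TTP (the product of ZFP36) and BRF1 (the product of ZFP36L1) bind AU-rich elements in the 3′ ends of mRNAs and promote their decay. Cell cycle genes are a known setting for such control, since TTP binds the cyclin D1 mRNA. The genes themselves act in sequence. D-type cyclins with CDK4 and CDK6, then cyclin E with CDK2, inactivate RB1 and release the E2F factors, which switch on the genes for origin licensing, nucleotide supply and the replication fork. Cyclins A and B with CDK1 then drive mitosis, whose genes are switched on later through CHR and CCAAT promoter elements. In an asynchronous culture, levels of S-phase and mitotic mRNAs also follow the share of cells in those phases. In bulk RNA, fewer cells in a phase and less RNA per cell cannot be told apart.

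Counts on genes ranged from 9685798 to 16430228 per library, and all 8 listed hepatocyte markers, among them ALB, passed the filter on low counts, with summed levels of 25371 to 25444 CPM in control and 24295 to 27174 CPM in DKO. Within these sums single markers differed: AFP fell from a mean of 7814 to 3563 CPM (-1.13 on the log2 scale, edgeR adjusted p = 0.0159) and TTR rose from 87.2 to 150.1 CPM (0.78, edgeR adjusted p = 0.0297), while APOB (0.61, edgeR adjusted p = 0.220) and SERPINA1 (0.78, edgeR adjusted p = 0.0528) did not pass. Of the 5 leukocyte, 4 endothelial and 5 fibroblast markers, CD3E, VWF, CDH5 and KDR were at 0 in every library. Levels here are counts per 1000000 of the TMM-scaled library size (CPM). Summed, the leukocyte markers reached 75.7 to 77.2 CPM in control and 109 to 127 CPM in DKO, nearly all of it LYZ. For the endothelial markers the sums were 6.28 to 7.46 CPM and 26.7 to 29.1 CPM, and all of this was PECAM1. Of the leukocyte, endothelial and fibroblast markers, only PECAM1 passed (2.03 on the log2 scale, edgeR adjusted p = 0.000163). LYZ did not (0.62, edgeR adjusted p = 0.0743). The fibroblast markers gave 88.6 to 138 CPM and 138 CPM in both DKO libraries, mostly COL1A2. Their part in the results was not tested. Of the targeted genes, ZFP36 had 29.3 and 23.8 CPM in control and 37.2 and 36.9 CPM in DKO (log2 fold change 0.48, SE 0.21, edgeR adjusted p = 0.207). ZFP36L1 had 132 and 111 CPM in control and 146 and 120 CPM in DKO (0.13, SE 0.20, edgeR adjusted p = 0.775). The labels do not say what the mutations are, and a mutation need not lower the mRNA, so these levels do not check the genotype labels.

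Of the cell cycle genes, only E2F2 passed the test between the clones. Of the 45, 1 fell in DKO, 0 rose and 44 did not pass an adjusted p of 0.05 in edgeR's quasi-likelihood test. The gene that fell was E2F2, an activator of S-phase genes. Across the 13359 genes tested, 5.37% passed, 2.24% higher and 3.14% lower, so 1 of 45 is a share near or below the background and no result about the genes as a list. Their median log2 fold change (DKO over control) was -0.01, beside 0.00 for all genes tested, and their values ran from -0.83 to 0.51. Before adjustment, 6 of the 45 had an edgeR p under 0.05 (3 positive, 3 negative values), and 20.2% of all genes did. DESeq2 called 0 higher and 2 lower (E2F2 and CDC25A), where 4.65% of all genes passed, and limma-voom called 0 higher and E2F2 lower, where 5.25% passed. Leaving out 1 library moved these counts: 4 of the 45 passed without control replicate 1 (15.6% of all genes), 1 without control replicate 2 (5.35%), 0 without DKO replicate 1 (1.68%) and 0 without DKO replicate 2 (1.61%). The 95% intervals cover only the spread between these libraries of 1 clone per genotype, and they are taken against the median gene. On these terms the interval lay within a 2-fold change in either direction for 42 of 45 genes (93.3%), beside 68.4% of all genes tested. The exceptions were E2F2, CDC25A and MCM4, and each of these intervals passed the 2-fold mark on the lower side. These shares depend on precision, and the 45 genes had a smaller median SE, 0.20 beside 0.23 for all genes tested. The quartiles of the fold changes were much alike, -0.23 and 0.22 for the 45 and -0.27 and 0.26 for all genes tested. The share of intervals thus does not show that the 45 genes changed less than others. Every direction here is taken against the median gene. With ERCC spike-in totals as library sizes, the median of all genes shifted by -0.68, all 45 genes had negative values and none passed, E2F2 included (-1.53, edgeR adjusted p = 0.0920). ERCC reads made up 1.47% and 0.946% of gene and ERCC counts in control and 1.62% and 2.10% in DKO. Libraries of a clone thus differed in this share, and a change in total RNA was not tested.

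**Figure D1:**
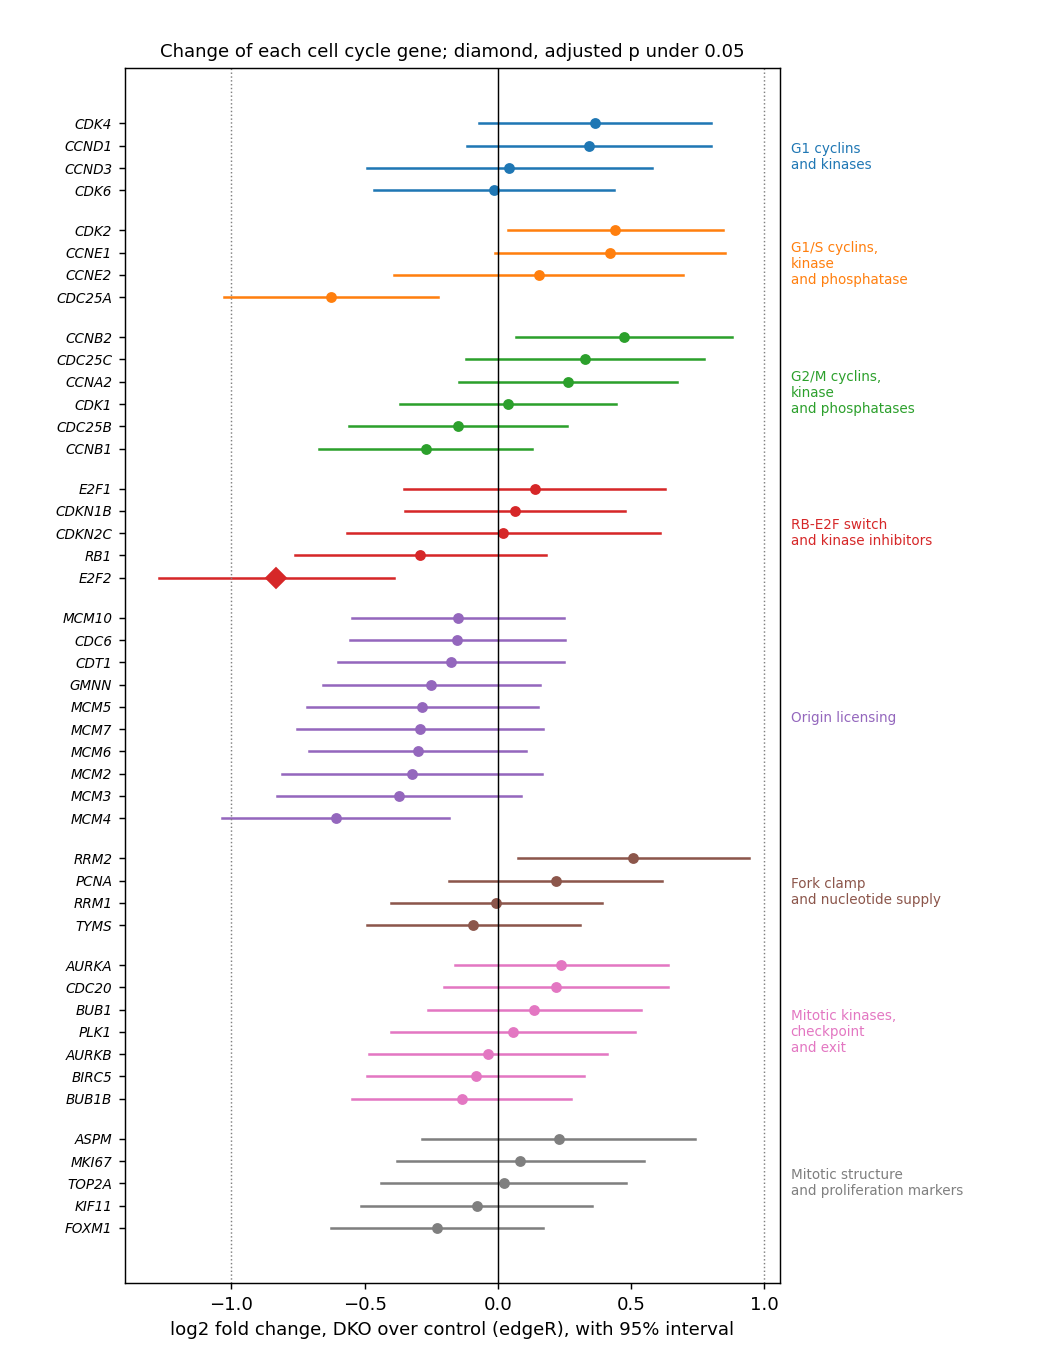
Log2 fold change of each of the 45 genes (DKO over control, x axis) with its 95% interval, grouped by role on the y axis; the diamond marks an adjusted p under 0.05 and dotted lines mark a 2-fold change. E2F2 at -0.83 is the only diamond, and all 10 origin licensing genes among the 45 lie to the left of 0. Among all genes tested, 49.9% had negative values.

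Sequence elements through which these genes are known to be controlled are shown here for the genes with the largest differences, with promoter windows of 300 bases from RefSeq (GRCh38.p14), running from 250 bases before to 50 after a start site. Windows were found for 37 of the 45 genes, 55 windows in all because some genes have several starts. The 4 printed belong to the genes with the 2 lowest and the 2 highest fold changes among those with a single window in the table. Capitals mark the words searched on both strands: the E2F site (TTTCCCGC, TTTCGCGC, TTTGCCGC or TTTGGCGC), the CHR (TTTGAA or TTCGAA) and the CCAAT box (CCAAT, read as ATTGG on the other strand). The words can overlap, and none contains another.
E2F2, chr1:23531184-23531483, minus strand: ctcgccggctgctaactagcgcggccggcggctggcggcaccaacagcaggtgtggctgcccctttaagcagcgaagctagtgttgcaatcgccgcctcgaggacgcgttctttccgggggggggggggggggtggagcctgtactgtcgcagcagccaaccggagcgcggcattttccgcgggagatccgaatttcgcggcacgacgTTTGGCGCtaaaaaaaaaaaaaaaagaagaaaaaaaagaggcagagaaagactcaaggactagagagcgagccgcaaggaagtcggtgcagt
CDC25A, chr3:48188368-48188667, minus strand: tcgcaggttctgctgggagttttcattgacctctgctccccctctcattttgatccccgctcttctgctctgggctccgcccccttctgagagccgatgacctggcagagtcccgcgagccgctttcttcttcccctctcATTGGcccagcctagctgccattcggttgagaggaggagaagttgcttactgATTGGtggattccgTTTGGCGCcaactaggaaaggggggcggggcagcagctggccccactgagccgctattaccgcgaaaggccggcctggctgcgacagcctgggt
CCNE1, chr19:29811741-29812040, plus strand: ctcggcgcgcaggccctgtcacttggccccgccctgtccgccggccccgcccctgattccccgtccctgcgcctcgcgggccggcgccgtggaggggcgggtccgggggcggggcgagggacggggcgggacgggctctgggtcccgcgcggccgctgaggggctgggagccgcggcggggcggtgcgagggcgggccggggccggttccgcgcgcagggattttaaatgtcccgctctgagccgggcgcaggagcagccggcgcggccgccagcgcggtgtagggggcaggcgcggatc
CCNB2, chr15:59104896-59105195, plus strand: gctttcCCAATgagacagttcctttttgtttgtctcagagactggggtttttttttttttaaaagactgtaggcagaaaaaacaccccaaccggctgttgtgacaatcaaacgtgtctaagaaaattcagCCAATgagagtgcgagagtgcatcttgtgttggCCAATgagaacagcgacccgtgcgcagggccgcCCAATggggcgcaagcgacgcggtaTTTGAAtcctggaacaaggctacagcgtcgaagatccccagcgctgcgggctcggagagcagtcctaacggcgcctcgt

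E2F2 and CDC25A each carried an E2F word, starting 42 and 44 bases before the start site. CCNB2 carried a CHR starting 29 bases before the start and 4 CCAAT boxes, and the CCNE1 window held none of these words. Over the 55 windows, 14 (25.5%) held an E2F word, beside 3.32% of all 35116 windows of this length. A CHR was present in 16 (29.1%, all windows 16.4%) and a CCAAT box in 37 (67.3%, all windows 34.6%). Their counts by role are given without a test of the difference. The E2F word stood in 7 of 11 windows of the licensing genes. These windows belong to 8 of the licensing genes, as 2, MCM4 and MCM5, had no window. MCM7 had several windows, and not all of them held the word. The E2F word was in 0 of 6 windows of the mitotic kinase and checkpoint genes and 0 of 4 of the mitotic structure genes. There the CHR stood in 4 of 6 and 4 of 4. The G2/M genes held both, with the E2F word in 2 of 13 windows and the CHR in 6 of 13, and both CDK1 windows carried both words. These CDK1 windows overlap and were the only G2/M windows with the E2F word. The CDC25C windows with the CHR overlap as well, so windows of a gene are not independent. The window of the licensing gene MCM6 also had a CHR beside its E2F words. A word in a window is a description and does not show that a factor binds there.

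For the AU-rich elements that TTP and BRF1 recognise, the longest annotated 3′ UTR of each gene (GENCODE 29, hg38) was searched for UAUUUAU, written with T in the sequences. The word stood in 10 of 45 genes (22.2%), beside 4270 of 11876 tested genes with a 3′ UTR (36.0%). The 45 genes had shorter 3′ UTRs, with a median of 1022 bases beside 1391.5. Sites are shown for the gene that fell, for its close relative E2F1 and for CCND1, with the word in capitals and 9 bases on each side.
E2F2, chr1:23509492-23509516, minus strand: atgcctttgTATTTATttcaggttg
E2F1 site nearest the 3′ end, chr20:33675999-33676023, minus strand: tgggtgattTATTTATtgggaaagt
CCND1, chr11:69652696-69652720, plus strand: taaaaagtaTATTTATtgcagagga

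The 10 genes with the word were CCND1, CCNE2, CDC6, CDK2, CDK6, CDKN1B, E2F1, E2F2, MCM10 and RB1. Their median log2 fold change was 0.02, with 5 positive and 5 negative values, and 0 rose and 1 fell. The 35 without it had a median of -0.01, and 0 passed. Over all tested genes with a 3′ UTR the medians were 0.04 with the word and -0.03 without it, and 90 rose and 120 fell of 4270 with the word, 182 and 281 of 7606 without it.

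The RB-E2F switch held the 1 called gene. E2F2 (chromosome 1, ENSG00000007968.6) was at 36.0 and 42.0 CPM in control and at 21.9 CPM in each library of the DKO clone. The DKO libraries lay below both control libraries, and the mean was 1.78-fold lower (39.0 ± 4.27 and 21.9 ± 0.00104 CPM, SD, n = 2). The DKO values rest on 227 and 354 reads, whose counting error alone exceeds that SD. An SD of 2 values is thus no measure of precision here. Its log2 fold change was -0.83 (SE 0.21, 95% interval -1.27 to -0.39, edgeR adjusted p = 0.0298). The call was lost without DKO replicate 1 (-0.83, edgeR adjusted p = 0.325) and without DKO replicate 2 (-0.83, edgeR adjusted p = 0.319), and over the 4 fits without 1 library the values ran from -0.94 to -0.72 (edgeR adjusted p from 0.00102 to 0.325). No exon base of E2F2 overlaps an exon of another annotated gene.

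E2F1, the other activating E2F among the genes, had 103 and 144 CPM in control and 109 and 162 CPM in DKO, and these overlapped (log2 fold change 0.14, SE 0.23, edgeR adjusted p = 0.797). The ratio of E2F2 to E2F1 reads within a library was 0.351 and 0.292 in control and 0.201 and 0.135 in DKO, and the clones did not overlap. This ratio uses the same E2F2 reads as the call, so it is no further support for it, and it was not tested. RB1, the repressor that holds E2F in check, had 62.8 and 44.1 CPM in control and 49.3 and 38.2 CPM in DKO, an overlap (-0.29, SE 0.22, edgeR adjusted p = 0.500). The CDK inhibitors CDKN1B (p27) and CDKN2C (p18) were at 0.06 and 0.02. CDKN2C was the lowest of the 45 per length, at 1.71 CPM per kb of exon in control and 1.73 in DKO.

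**Figure D2:**
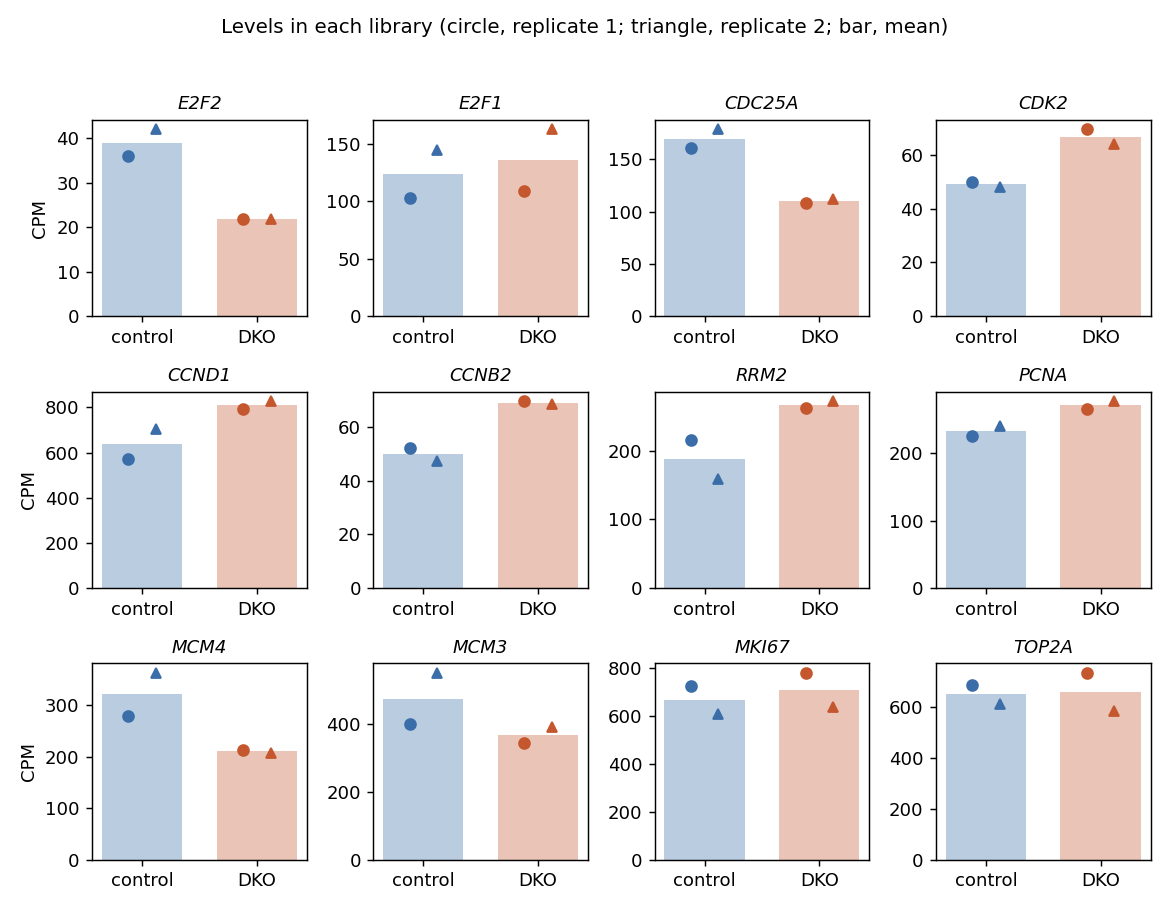
CPM in each library (y axis, from 0) of 12 genes in the control and DKO clones; circles are replicate 1, triangles replicate 2 and bars the mean of 2 libraries. E2F2 lies at 36.0 and 42.0 CPM in control and at 21.9 CPM in DKO, while E2F1, MKI67 and TOP2A overlap between the clones.

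G1 cyclins and their kinases had log2 fold changes of -0.02 to 0.37, and 0 of 4 passed. CCND1, the D-type cyclin whose mRNA TTP is known to bind, had 572 and 705 CPM in control and 792 and 828 CPM in DKO. The DKO values were the higher ones without overlap, by a mean of 1.27-fold, and the log2 fold change of 0.34 (SE 0.22, 95% interval -0.12 to 0.80) did not pass (edgeR adjusted p = 0.399). CDK4, a kinase partner of the D cyclins, had 204 and 243 CPM in control and 251 and 325 CPM in DKO (0.37, SE 0.20, edgeR adjusted p = 0.337). Its libraries did not overlap either, though 43.2% of its exon bases lie under TSPAN31 on the other strand. CDK6, the alternative partner, had 142 and 108 CPM and 140 and 107 CPM, with a log2 fold change of -0.02 (edgeR adjusted p = 0.978).

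CCND1 was by far the main D-type cyclin in both clones. Per kb of exon, CCND1 reached 132 CPM in control and 168 in DKO, CCND3 2.05 and 2.11, and CCND2 had 0 counts in all 4 libraries, where 3 counts would correspond to at most 0.302 CPM. CCND3 differed by 0.04 on the log2 scale (edgeR adjusted p = 0.947).

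At the G1/S step, CDK2 and the E cyclins had positive values and the phosphatase CDC25A a negative one, and 0 of 4 passed. CDK2, which fires origins, had 49.97 and 48.2 CPM in control and 69.5 and 63.9 CPM in DKO, without overlap (0.44, SE 0.19, edgeR adjusted p = 0.202). Its partner CCNE1 differed by 0.42 (edgeR adjusted p = 0.259) and CCNE2 by 0.15 (edgeR adjusted p = 0.795). CCNE2 overlapped between the clones, and its value was -0.19 without control replicate 2 and positive in the remaining fits without 1 library. Genes on the other strand cover 37.1% of the exon bases of CCNE2 and 16.8% of those of CDK2. CDC25A, which removes inhibitory phosphates from CDK2, had 161 and 178 CPM in control and 108 and 112 CPM in DKO. Both DKO libraries were below both controls, by a mean of 1.54-fold, and the log2 fold change was -0.62 (SE 0.19, edgeR adjusted p = 0.0687). It passed in DESeq2 (-0.63, DESeq2 adjusted p = 0.0397) and without control replicate 1 (-0.70, edgeR adjusted p = 0.0184), while the other 3 fits without 1 library gave -0.65 to -0.55 without a call. CDC25A was the gene whose chromosomal neighbours differed most, as given below.

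Of the 10 origin licensing genes among the 45, all had negative values and none passed in the fit with group as the only term. Negative values made up 49.9% of all genes tested, and the sign count was not tested. The origin recognition genes ORC1 to ORC6, read among the further pathway genes below, had both signs and none passed. Their values were -0.13 (ORC1), 0.22 (ORC2), 0.14 (ORC3), 0.67 (ORC4), 0.02 (ORC5) and -0.19 (ORC6). The 10 comprise the subunits of the MCM2 to MCM7 helicase ring, loaded onto origins before S phase, and CDC6, CDT1, GMNN and MCM10. Among these 10, MCM4 had the largest difference, with 278 and 362 CPM in control and 213 and 207 CPM in DKO. Its mean was 1.52-fold lower (log2 fold change -0.61, SE 0.20, edgeR adjusted p = 0.0929). Its libraries did not overlap, and it passed without control replicate 1 (-0.79, edgeR adjusted p = 0.00991) and in none of the other fits without 1 library (-0.62 to -0.41). MCM7, the most abundant, had 551 and 678 CPM in control and 444 and 561 CPM in DKO, which overlapped (-0.29, SE 0.22, edgeR adjusted p = 0.491).

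The other subunits of the ring, MCM2 (-0.32), MCM3 (-0.37), MCM5 (-0.28) and MCM6 (-0.30), lay close to MCM7. Summed over the 6 subunits, the ring's mRNAs came to 1890 and 2465 CPM in control and 1556 and 1843 CPM in DKO, so DKO was below control without overlap. The spread between the control libraries, 1890 against 2465, was wider than the gap of 1843 to 1890 between the clones. Per kb of exon the subunits were not level among themselves in either clone, from 18.0 for MCM5 to 140 for MCM7 in control and from 14.8 to 115 in DKO, and exon lengths of GENCODE need not be those of the transcripts in use.

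MCM10, which acts after loading, had the value closest to 0 in this group, with 142 and 135 CPM in control and 130 and 121 CPM in DKO (-0.15, SE 0.19, edgeR adjusted p = 0.717). The loaders CDC6 (-0.15) and CDT1 (-0.17) and the CDT1 inhibitor GMNN (-0.25) completed the group. Of the 10, 6 had DKO libraries below both control libraries, and this was true of 24.8% of all genes tested. These genes are known to be switched on together, so the 10 values are not independent. All 10 kept a negative value in each of the 4 fits without 1 library, in which MCM2 ranged from -0.59 to -0.0039. These fits reuse the libraries of the full fit, and for the 6 genes without overlap the sign could hardly change. How often all tested genes keep their sign is not given here, so this count is no further support for a shared decrease.

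Of the clamp and nucleotide genes 0 of 4 passed, with 2 positive and 2 negative values. RRM2, the S-phase subunit of ribonucleotide reductase, had 216 and 159 CPM in control and 262 and 273 CPM in DKO. The clones did not overlap, the mean was 1.42-fold higher, and its value on the log2 scale, 0.51 (SE 0.20, edgeR adjusted p = 0.167), was the highest among the 45. It passed without control replicate 1 (0.74, edgeR adjusted p = 0.0243), and the remaining fits without 1 library gave 0.30 to 0.54 without a call. RRM1, the large subunit of the same enzyme, was at -0.01 (edgeR adjusted p = 0.991). Reads of RRM2 relative to RRM1 within a library were 1.41 and 1.05 in control and 1.76 in both DKO libraries. RRM2 has 3 annotated pseudogenes and shares 20.2% of its exon bases with another gene of the same strand, so its value is uncertain.

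PCNA, the sliding clamp of the fork, was the most abundant of the 45 per length, at 159 CPM per kb in control and 185 in DKO. It had 226 and 241 CPM in control and 265 and 278 CPM in DKO (0.22, SE 0.19, edgeR adjusted p = 0.561), and 3 pseudogenes carry its name. TYMS, which makes thymidylate, had 153 and 166 CPM and 143 and 156 CPM, an overlap (-0.09, edgeR adjusted p = 0.840). Genes on the other strand cover 46.6% of its exon bases.

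The B cyclins had values of opposite sign, and 0 of 6 genes of the G2/M step passed. CCNB2 had 52.4 and 47.4 CPM in control and 69.9 and 68.7 CPM in DKO, without overlap (0.47, SE 0.19, edgeR adjusted p = 0.169). CCNB1, the major mitotic cyclin, had 190 and 197 CPM in control and 152 and 168 CPM in DKO, also without overlap but in the other direction (-0.27, SE 0.19, edgeR adjusted p = 0.452). The ratio of CCNB2 to CCNB1 reads within a library was 0.275 and 0.241 in control and 0.459 and 0.408 in DKO. For CCNA2 against CCNB1 it was 0.762 and 0.613 in control and 1.04 and 0.952 in DKO. Neither ratio overlapped between the clones, and neither was tested. Other ratios taken within a library went both ways. CCNE1 to CCNE2 was 1.18 and 2.31 in control and 1.85 and 2.03 in DKO, an overlap. CDK4 to CDK6 and CDT1 to GMNN overlapped as well, while CCND1 to CCND3 and MCM4 to MCM7 did not. How often ratios of other genes separate the clones was not examined. CDK1, the kinase of the A and B cyclins, was at 0.04, and the phosphatases CDC25B and CDC25C, which activate it, were at -0.15 and 0.33.

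Of the mitotic kinases and checkpoint genes 0 of 7 passed, with a median of 0.06. AURKA, the spindle pole kinase, had 128 and 119 CPM in control and 141 and 150 CPM in DKO (0.24, SE 0.19, edgeR adjusted p = 0.515). BUB1B, a checkpoint kinase homologue, had 116 and 117 CPM and 116 and 96.04 CPM (-0.13, edgeR adjusted p = 0.757). CDC20, which activates the anaphase-promoting complex, had 151 and 190 CPM and 185 and 211 CPM (0.22, edgeR adjusted p = 0.581). The clones overlapped for BUB1B and CDC20 and not for AURKA. PLK1 (0.06), AURKB (-0.04), BUB1 (0.14) and BIRC5, or survivin (-0.08), lay between these values.

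The markers used to count dividing cells overlapped between the clones. MKI67, which encodes Ki-67, had 725 and 607 CPM in control and 778 and 634 CPM in DKO (0.09, SE 0.22, 95% interval -0.38 to 0.55, edgeR adjusted p = 0.875). TOP2A, the topoisomerase of dividing cells, was at 0.02 (95% interval -0.44 to 0.48) and the spindle motor KIF11 at -0.08. ASPM, a spindle pole protein, had 270 and 183 CPM and 323 and 209 CPM (0.23, SE 0.24, edgeR adjusted p = 0.648). Of the same group, FOXM1, the factor that activates mitotic genes, had 188 and 184 CPM and 164 and 153 CPM, without overlap (-0.23, SE 0.19, edgeR adjusted p = 0.536). Over all 45 genes, 21 had clones whose levels did not overlap (11 with DKO above and 10 below). Among all genes tested this share was 49.8% (25% above and 24.8% below), so 21 of 45 is near the background.

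Libraries with the same number differed in a like way in both clones, and the difference went with base composition. Replicate 1 was above replicate 2 in both clones for 14 of the 45 genes and below it in both for 22. AT-rich transcripts such as those of ASPM (37.2% GC; log2 of replicate 1 over replicate 2, 0.56 in control and 0.63 in DKO) and RB1 (39.3%; 0.51 and 0.37) were higher in replicate 1. GC-rich ones such as E2F1 (62.5%; -0.49 and -0.58) and MCM2 (58.1%; -0.59 and -0.33) were lower. Across the 45 genes GC content and this difference had Pearson r = -0.771 in control and -0.743 in DKO, a description over genes of the same 4 libraries. The log2 fold change between the clones followed GC content less (r = -0.154). The share of counts on genes of the mitochondrial genome also differed by replicate number. It was 2.53% in replicate 1 and 0.448% in replicate 2 of control, and 3.59% and 1.16% in DKO. Whether this difference is tied to that in base composition was not tested.

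**Figure D3:**
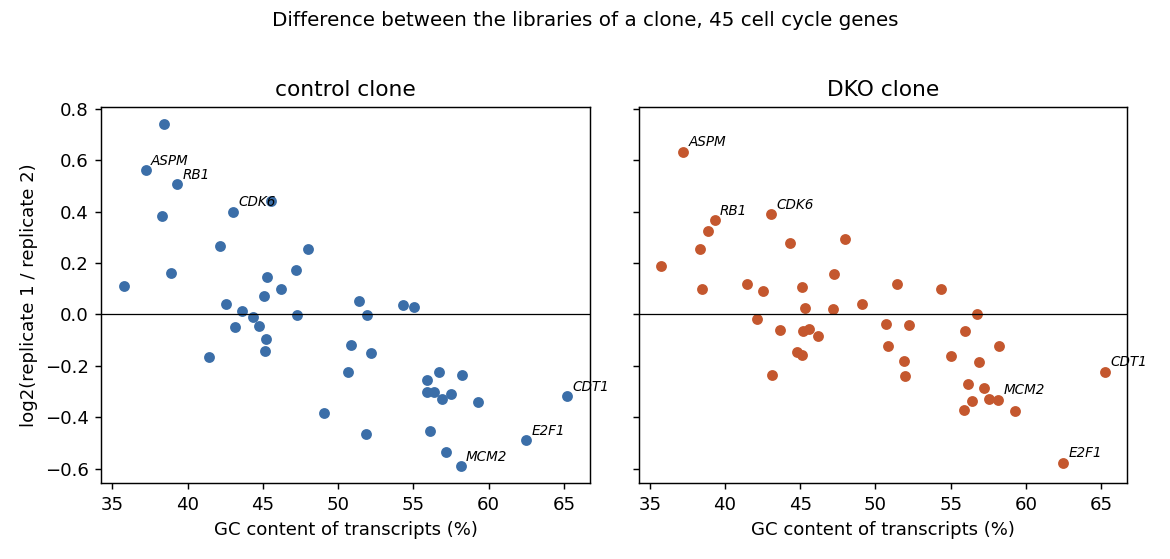
Log2 ratio of replicate 1 to replicate 2 (y axis) against the GC content of each gene's annotated transcripts (x axis, percent) for the 45 genes, control clone on the left and DKO clone on the right. In both clones ASPM and RB1 lie high at low GC, and E2F1 and MCM2 lie low at high GC.

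With each library freed of its trends over GC content and gene length, a setting chosen after the data had been seen, 6 of the 45 genes passed (13.3%), beside 15.9% of all genes tested. CDK2 (0.45, edgeR adjusted p = 0.0299) and RRM2 (0.49, edgeR adjusted p = 0.0322) were then called higher. Called lower were E2F2 (-0.70, edgeR adjusted p = 0.00458), CDC25A (-0.60, edgeR adjusted p = 0.00590), MCM4 (-0.55, edgeR adjusted p = 0.0241) and RB1 (-0.41, edgeR adjusted p = 0.0425). Under it CDT1 had a value of 0.04, so that 9 of the 10 licensing genes remained negative, and the median of the 45 was -0.05.

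The value of a gene was also set beside those of its neighbours on the chromosome, named by the size of the neighbour median after the values were seen. For each gene the median log2 fold change of up to 50 neighbouring tested genes, 25 on each side (at least 30 in all), was taken. CDC25A, on chromosome 3 (48157146 to 48188402), had a neighbour median of -0.62, the same size as its own value of -0.62. FOXM1 had -0.38, MCM4 -0.29 and RB1 -0.27, and CDK4 had 0.31. Over all tested genes the 5th and 95th percentiles of this median were -0.34 and 0.24, so CDC25A and FOXM1 lay below and CDK4 above that range. E2F2 (chromosome 1, 23506430 to 23531220) had a neighbour median of -0.21, less than its own -0.83, and MCM3 had 0.16 against its own -0.37. Of the 45 genes, 27 lay on the same side of 0 as their neighbours. The correlation over the 45 was r = 0.585 (0.522 without CDC25A), beside 0.334 over all 13132 tested genes with a position, given as a description since neighbourhoods overlap and share libraries. Whether the clones differ in copy number at these places was not tested.

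**Figure D4:**
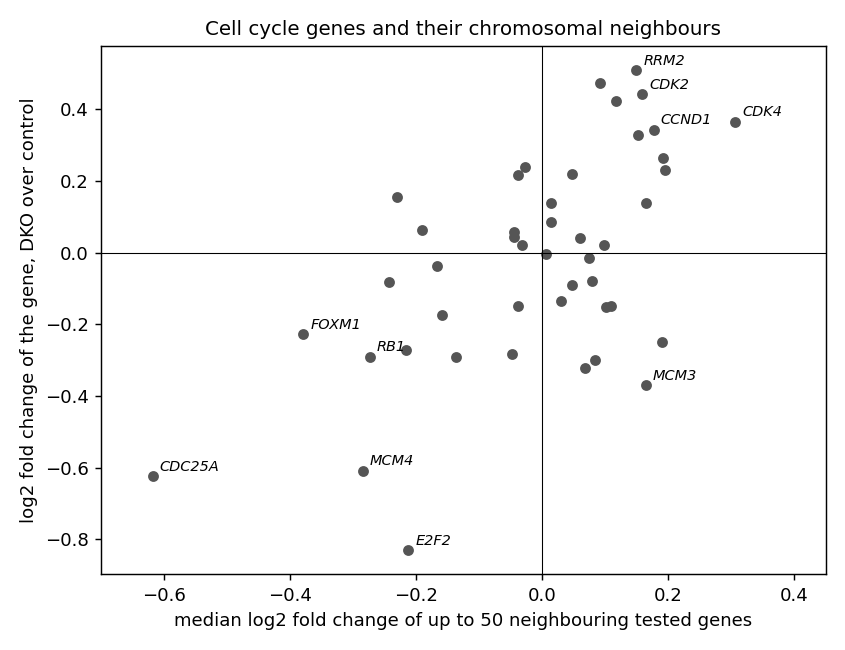
Log2 fold change of each of the 45 genes (y axis) against the median of its neighbouring tested genes (x axis). CDC25A lies at -0.62 on both axes, whereas E2F2 lies at -0.83 with a neighbour median of -0.21.

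Further genes of the same pathways, 155 in 5 lists, were read in the same way: 154 were tested, 1 rose, 2 fell and 151 did not pass, with a median of 0.02, where 5.37% of all genes passed. Before adjustment 15 were higher and 12 lower at an edgeR p under 0.05, where 20.2% of all genes passed. When control replicate 1 was left out, 13 were higher and 12 lower (15.6% of all genes were then called), and when control replicate 2 was left out, 2 were higher and 3 lower (5.35%). Leaving out DKO replicate 1 left 1 higher and 0 lower (1.68%), and leaving out DKO replicate 2 left no call (1.61%). With ERCC totals 0 passed. Among 30 other cyclins, E2F factors and inhibitors, 0 rose and 1 fell. It was SKP2, the ubiquitin ligase subunit that marks p27 for destruction, with 304 and 269 CPM in control and 175 and 160 CPM in DKO (-0.77, SE 0.19, edgeR adjusted p = 0.0293). Its neighbours on chromosome 5 had a median of -0.29, and CDKN1B, which encodes p27, was at 0.06 as given above. Of 49 other replication factors, POLD4, a small subunit of DNA polymerase delta, rose from 5.54 and 4.81 CPM to 8.99 and 12.6 CPM (1.08, SE 0.28, edgeR adjusted p = 0.0352), and 0 fell.

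The 48 other mitotic genes included KIF15, a spindle motor that overlaps in function with KIF11, as the only call. KIF15 fell from 64.1 and 59.1 CPM to 32.9 and 30.8 CPM (-0.95, SE 0.19, edgeR adjusted p = 0.0112). It lies on chromosome 3 (44761717 to 44873376) with a neighbour median of -0.45, and KIF11 itself was at -0.08. None of 15 subunits and activators of the anaphase-promoting complex passed (median 0.02), with 2 higher and 0 lower at an unadjusted edgeR p under 0.05. The leading one was ANAPC10 (0.99, edgeR adjusted p = 0.0519). None of 12 checkpoint kinases and sensors passed either (median -0.09), with 3 higher and 2 lower at that limit, led by CHEK1 (0.61, edgeR adjusted p = 0.0851). CHEK1 and ATM (0.64, edgeR adjusted p = 0.0976), named after its value was seen, both lie on chromosome 11 with neighbour medians of 0.56 and 0.51.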

How the data were processed

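The deposited table gives raw counts of reads for each gene in each library, which the authors had not normalized. The submitters' processing notes name STAR 2.5.3a, Subread 1.6.3 with featureCounts, DESeq2 and the build hg38. Per the labels' protocols, ERCC spike-ins were added, ribosomal RNA was depleted and the library kit was directional. No source used here gives the annotation or strand setting of the counting, so genes that overlap others or have pseudogenes are uncertain: 8 of the 45 genes have over 10% of exon bases under genes of the other strand, 2 under genes of the same strand, and 10 have named pseudogenes. GENCODE 29 (hg38) gave positions, lengths and 3′ UTRs.

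The 92 ERCC rows were left out of library sizes. The clones were compared by the quasi-likelihood test of edgeR 4.0.16 under R 4.3.3 (filterByExpr, TMM, group as the only term). P-values were adjusted by Benjamini-Hochberg over all 13359 genes tested, with a threshold of 0.05. The script was tested on simulated data. Libraries of a clone differed beyond sampling noise (chi-square per degree of freedom 24.2 in control and 19.7 in DKO). No label names separate cultures, and p-values then cover only the spread of these libraries, possibly technical. Counting floors cover counting error only.

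The members and lists were chosen with earlier results of these data known. Named are genes past the threshold, the highest and lowest fold change and the highest CPM of each role, CCND1, the targeted genes, and up to 3 called genes, or the leading one, of each pathway list; the remaining members are given by value only. Alternatives were no filter, other scalings, ERCC totals, DESeq2 1.42.0, limma-voom (limma 3.58.1), the replicate number as a block, each library left out, and removal of GC and length trends (loess, span 0.3), the last chosen after seeing the data.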

Additional observations from a re-analysis of the deposited data

How the results depend on the processing

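DESeq2 size factors in edgeR and unscaled totals changed no count of calls by over 1.5 times, and E2F2 kept a negative value in every alternative run. Over all genes, 299 were called higher and 419 lower. These counts became 561 and 633 without the filter, 22 and 307 with ERCC totals, and 1097 and 1033 with GC and length trends removed, and they ran from 105 to 1028 and from 107 to 1144 without 1 library. Of the 45 genes, the 0 higher and 1 lower became 2 and 4 with those trends removed, 0 and 2 with DESeq2 and 0 and 0 with ERCC totals, where their median was -0.69, and they ran from 0 to 1 and from 0 to 3 without 1 library. Of the pathway genes, the 1 higher and 2 lower became 7 and 5 without the filter, 0 and 0 with ERCC totals, 3 and 2 with limma-voom and 14 and 14 with the trends removed, and they ran from 0 to 13 and from 0 to 12 without 1 library. Fits without 1 library leave a clone with a single library, whose spread is assumed to be that of the other clone. The causes were not tested.

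With the replicate number as a block, 1998 genes were called higher and 2023 lower (30.1%), and among the 45 genes 6 higher (CCNB2, CCND1, CCNE1, CDK2, CDK4 and RRM2) and 6 lower (CDC25A, E2F2, MCM2, MCM3, MCM4 and MCM6), with 20 and 26 among the pathway genes. The labels do not say that the numbers pair the libraries. Same-numbered libraries deviated together (r = 0.470 over all tested genes and 0.742 over the 45). Signs over the 4 fits without 1 library were all negative for 18 of the 45 genes, all positive for 12 and mixed for 15.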
